A study of Mus musculus with 6 samples.

Results

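Canertinib was injected into mice that were already on a fast-food diet, and its liver transcriptome at 5 months is described here against that of vehicle-injected mice on the same diet. The comparison was chosen by array title and takes in 2 of the 6 arrays of the series, 1 per side, with all 13989 measured genes. All mice were male C57BL6/J, an inbred laboratory strain, and began a diet at 6 to 8 weeks of age. Both groups compared ate the fast-food diet for 5 months, a western diet with 21% fat, 34% sucrose and 0.2% cholesterol by weight, and drank water with 18.9 g/L glucose and 23.1 g/L fructose. During the last 5 weeks, one group was injected intraperitoneally with PBS as vehicle and the other with canertinib at 80 mg/kg, each on 5 days per week. The 5-month study also had a chow group, for which the labels name no injection. In the separate 2-month study, used below for comparison, canertinib was mixed into the fast-food diet from the start at an estimated 80 mg/kg per day, beside chow and fast-food groups. RNA of 3 to 4 livers was pooled for each array.

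Canertinib blocks the kinases of the ERBB receptor family irreversibly, the epidermal growth factor receptor EGFR among them. In hepatocytes, EGFR passes signals from its ligands to the ERK cascade and takes part in growth and regeneration. The liver stores surplus fatty acids as triglyceride in lipid droplets, which coat proteins such as perilipins and CIDE proteins cover. It also makes most plasma proteins, and during inflammation interleukin 1 and the interleukin 6 family, acting through C/EBP factors and STAT3, switch hepatocytes to acute phase proteins.

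Each group was a single array, so no difference had a replicate check, no test was run, and sizes are given without an error. Levels are MAS5 signals, the fluorescence summary of an Affymetrix probe set, on a linear scale, and the number of arrays limits their precision. Signals below 221.4, the 50th percentile of all values, were raised to that floor. Where 1 of the compared arrays was at the floor, the gene therefore has a bound, written as at least N-fold. Both 5-month fast-food arrays were above it for 11029 genes, 1 of them for 1825 and neither for 1135. The chow arrays of the 2 studies, which differ in the length of the study but in no drug or diet, gave the background. That pair crosses 2 separate studies and differs in the age of the mice, whereas the drug comparison lies within 1 study. It is therefore not a like-for-like measure of array noise. Actin probe sets at the 3' and 5' ends of the transcript, which part when RNA is degraded, differed by 1.12 on the log2 scale on the canertinib array, 0.98 on the vehicle array and 0.85 on the 5-month chow array, and those of Gapdh by -0.14, -0.22 and -0.09. The part of RNA quality in the results was not tested. In bulk liver, fewer cells of a type and less RNA per cell cannot be told apart.

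With canertinib, 307 genes (2.19% of those measured) were at least 2-fold higher than with vehicle and 382 (2.73%) were at least 2-fold lower. Of these, 67 higher and 107 lower genes had a bound. The 5-month chow array differed from the 2-month chow array by at least 2-fold upward in 179 genes (1.28%) and downward in 185 (1.32%). The drug comparison stood further from this background in its tail than in its body. The median absolute log2 difference was 0.25 with the drug and 0.21 between the chow arrays, whereas at least 4-fold differences numbered 40 higher (0.286%) and 28 lower (0.2%) against 9 (0.0643%) and 4 (0.0286%). At 8-fold, 16 genes were higher (0.114%) and 1 lower (0.00715%) with canertinib, against 1 (0.00715%) and 0 (0%) between the chow arrays. The 6 genes past 16-fold (0.0429%), Saa2, Orm2, S100a8, Scara5, Mt2 and S100a9, were all higher, and none was lower (0%).

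**Figure D1:**
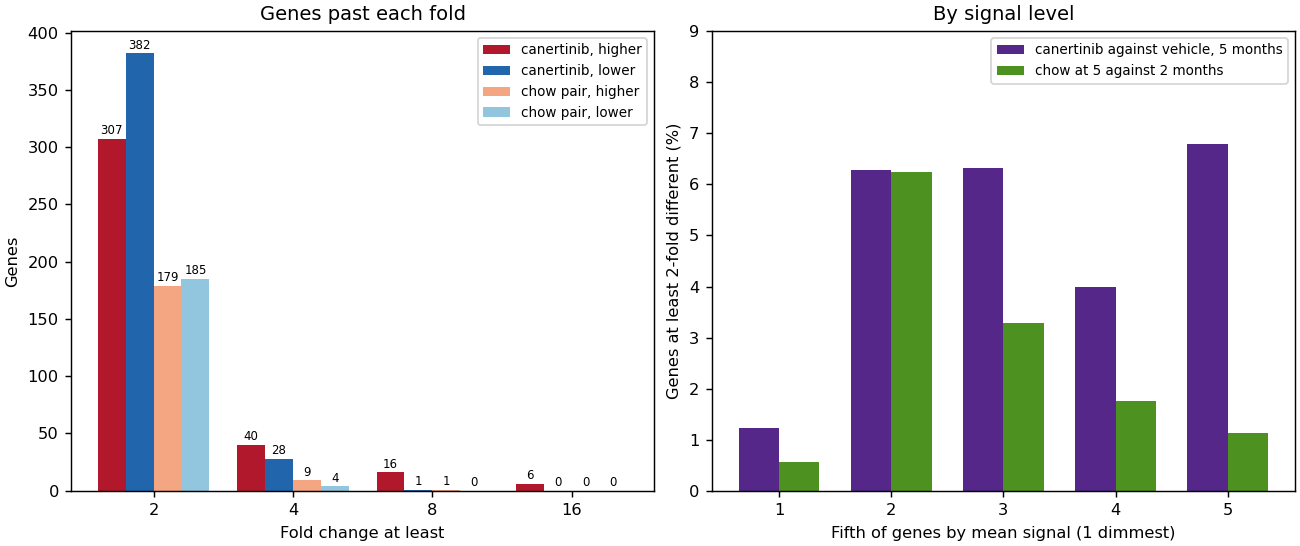
Left, number of genes at least 2-, 4-, 8- and 16-fold higher or lower with canertinib against vehicle at 5 months, beside the same for the 5-month against the 2-month chow array. Right, percent of genes at least 2-fold different in either direction within bins of 20% of the measured genes ordered by mean signal; in the brightest 20% the drug comparison holds 6.79% and the chow pair 1.14%.

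The excess over the chow pair was largest among bright genes. Over all genes, 4.93% differed at least 2-fold either way with canertinib and 2.6% between the chow arrays. In the brightest 20% of genes, with mean signals from 1501 upward, the shares were 6.79% and 1.14%. In the 20% with mean signals between 282.6 and 447.5 they were 6.29% and 6.25%, so there a 2-fold difference was about as frequent without the drug as with it. In the bins between these they were 6.33% and 3.29%, then 4% and 1.75%, and in the dimmest 20% they were 1.22% and 0.572%. Mean signals in that dimmest bin lay between 221.4, the floor itself, and 282.6. The floor thus limits how far its genes can differ, and its shares do not show how much they vary. Many genes are reported by several probe sets, which are separate measurements on the same arrays. For 101 of the higher genes there were 172 other measured probe sets, of which 74.4% had the same sign and 25% the same sign at 2-fold or more, and 2 were at least 2-fold in the other direction. For 149 of the lower genes there were 239 others, with 79.9% of the same sign and 28.5% at 2-fold or more, and 2 again went the other way. Between the chow arrays, 55.7% and 56.5% of other probe sets had the same sign and 10% and 5.88% reached 2-fold.

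**Figure D2:**
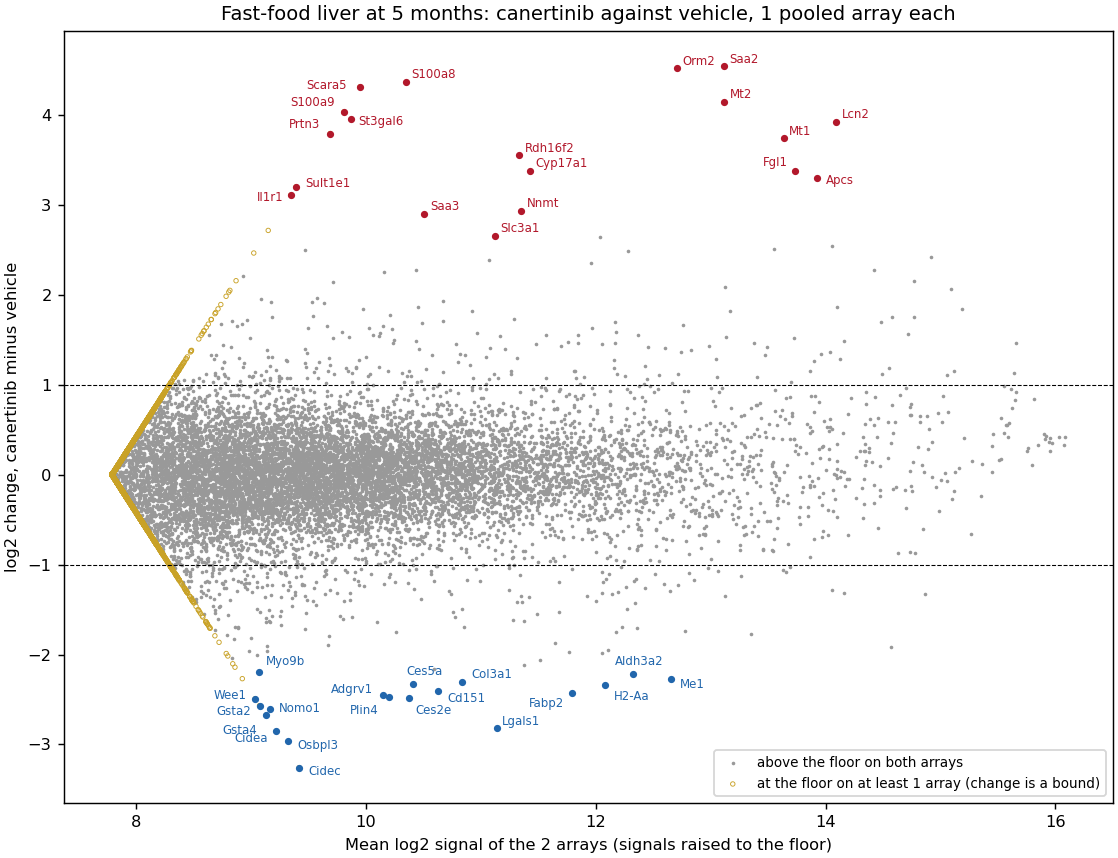
Log2 change with canertinib against vehicle at 5 months (y axis) over the mean log2 signal of both arrays (x axis), 1 point per measured gene, with dashed lines at 2-fold. Named points are the 14 largest differences each way among genes above the floor on both arrays and the 5 largest bounds each way; Saa2 leads the higher genes at 4.55 and Cidec the lower ones at a bound of -3.26.

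Among 38 gene lists, which were chosen with earlier results of these data known, the acute phase genes were the most shifted. They encode plasma proteins of the inflammatory response. All 24 measured members were above the vehicle level, 19 by at least 2-fold, with a median log2 change of 1.80 where the median of all measured genes was 0. Between the chow arrays, 4 of the 24 were at least 2-fold higher at 5 months and their median was 0.27. Over all measured genes, 2.19% were at least 2-fold higher with canertinib and 2.73% lower. The counts in every list below stand beside these shares. A single member past 2-fold is not read as a shift of its list. Saa2, a serum amyloid A that travels on high density lipoprotein, gave signals of 1588 on the chow, 1836 on the vehicle and 42877 on the canertinib array, a 23.4-fold difference. Orm2, an orosomucoid that binds lipophilic compounds in plasma, gave 495.1, 1390 and 31989 in the same order, a difference of 23.0-fold. Lcn2, which binds bacterial iron carriers, gave 609.0, 4481 and 68150, or 15.2-fold. In Saa2 the chow and vehicle arrays lay close together at 5 months, whereas Lcn2 and Orm2 were already higher on the vehicle than on the chow array. At 2 months Saa2 too was higher on fast food without drug, at 1451 against 283.1 on chow. Fgl1, a fibrinogen-like hepatokine, gave 6561, 4221 and 43894, or 10.4-fold. Apcs, the serum amyloid P component that binds amyloid and microbial surfaces, gave 6085, 4950.0 and 48759, or 9.85-fold.

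Other acute phase members with large differences were Serpina3n, a serine protease inhibitor, with a log2 change of 2.54, Saa1 with 2.42, Orm1 with 2.28, the inter-alpha inhibitor chain Itih3 with 2.16, Orm3 with 1.93, Itih4 with 1.85 and the leucine-rich glycoprotein gene Lrg1 with 1.75. Saa3, a serum amyloid A expressed also outside the liver, gave 783.9 on chow, 532.9 with vehicle and 3987 with canertinib. That is a 7.48-fold difference, where the log2 change at 2 months was 0.44. The 5 members under 2-fold were the haem carrier Hpx with 0.40, haptoglobin, Hp, with 0.41, C-reactive protein, Crp, with 0.65, the fibrinogen chain Fga with 0.83 and ceruloplasmin, Cp, with 0.84. Fgb and Fgg, the other fibrinogen chains, had 1.47 and 1.14. Saa1 and Saa2 are near-identical neighbours, as are the Orm genes, so probe sets of one may also report another. Between the chow arrays Saa1 and Saa2 differed by 3.38 and 2.49 on the log2 scale, which is more than the drug difference of Saa1 and less than that of Saa2.

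The promoters of acute phase genes and of a metallothionein are shown because both groups hold some of the largest differences, Saa1 beside Saa2 because the 2 genes are near-identical. Sequences are the 250 bases upstream of the RefSeq gene start on GRCm38.p6, 5' to 3' on the gene's strand, in lower case. Capitals mark a match to TTGCNNAA, a core that C/EBP factors bind, in Saa1 (chr7:46742981-46743230, minus strand), Saa2 (chr7:46751583-46751832, plus strand), Orm2 (chr4:63362199-63362448, plus strand) and Lcn2 (chr2:32387740-32387989, minus strand). In Mt1 (chr8:94178839-94179088, plus strand) capitals mark a match to TGCGCNC or TGCACNC, the core of the metal response element.
Saa1: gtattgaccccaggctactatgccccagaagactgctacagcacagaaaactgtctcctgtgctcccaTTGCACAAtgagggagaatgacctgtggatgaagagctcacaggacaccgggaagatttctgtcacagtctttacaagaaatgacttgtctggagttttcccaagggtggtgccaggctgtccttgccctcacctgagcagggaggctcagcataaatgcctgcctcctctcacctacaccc
Saa2: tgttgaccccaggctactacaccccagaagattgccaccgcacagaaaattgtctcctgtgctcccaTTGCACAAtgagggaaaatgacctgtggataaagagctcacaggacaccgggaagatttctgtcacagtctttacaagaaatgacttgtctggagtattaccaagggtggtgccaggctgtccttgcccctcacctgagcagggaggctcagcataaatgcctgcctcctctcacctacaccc
Orm2: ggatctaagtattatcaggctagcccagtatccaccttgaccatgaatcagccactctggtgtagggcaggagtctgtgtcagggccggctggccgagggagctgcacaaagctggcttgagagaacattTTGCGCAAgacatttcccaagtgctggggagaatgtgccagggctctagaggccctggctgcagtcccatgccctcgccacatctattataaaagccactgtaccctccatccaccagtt
Lcn2: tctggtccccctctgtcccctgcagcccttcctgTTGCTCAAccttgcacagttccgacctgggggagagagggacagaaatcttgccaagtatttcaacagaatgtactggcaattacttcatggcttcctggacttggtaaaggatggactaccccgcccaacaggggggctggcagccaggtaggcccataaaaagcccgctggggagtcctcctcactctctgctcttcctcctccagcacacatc
Mt1: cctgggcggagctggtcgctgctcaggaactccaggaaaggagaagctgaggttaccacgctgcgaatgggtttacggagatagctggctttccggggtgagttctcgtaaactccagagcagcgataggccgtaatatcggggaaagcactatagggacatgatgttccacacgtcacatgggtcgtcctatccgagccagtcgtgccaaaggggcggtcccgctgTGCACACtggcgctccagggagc
Both strands of these 250 bases were searched. Bases further upstream, or downstream of the RefSeq start, were not, so more matches may lie outside the windows shown. The C/EBP core was in 9.55% of all 27025 promoters of this length and in 7.83% of the 11216 belonging to measured genes. It was in 9 of the 15 promoters at hand of acute phase genes at least 2-fold higher with canertinib. Those 9 were Fgb, Lcn2, Orm2, Orm3, Saa1, Saa2, Saa3, Saa4 and Steap4, so related Saa and Orm genes were counted separately. The 15 were picked by their change on these same arrays, and the other acute phase promoters were not counted, so enrichment was not tested. The STAT core TTCNNNGAA was in 7.18% of all promoters and 6.05% of those of measured genes. It was in 4 of the 15, those of Apcs, Fgb, Itih4 and Steap4. An NF-kB core of GGGA and TTCC with any 2 bases between them was in 1.17% and 1.11%, and in none of the 15. The metal response core was in 21.3% of all promoters, 28.3% of those of measured genes and 2 of the 15. Upstream of Saa1 and Saa2, 238 of 251 aligned positions were identical, or 94.8%, and the C/EBP match was TTGCACAA in both. A match describes the letters of the promoter and is not a measured site.

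**Figure D3:**
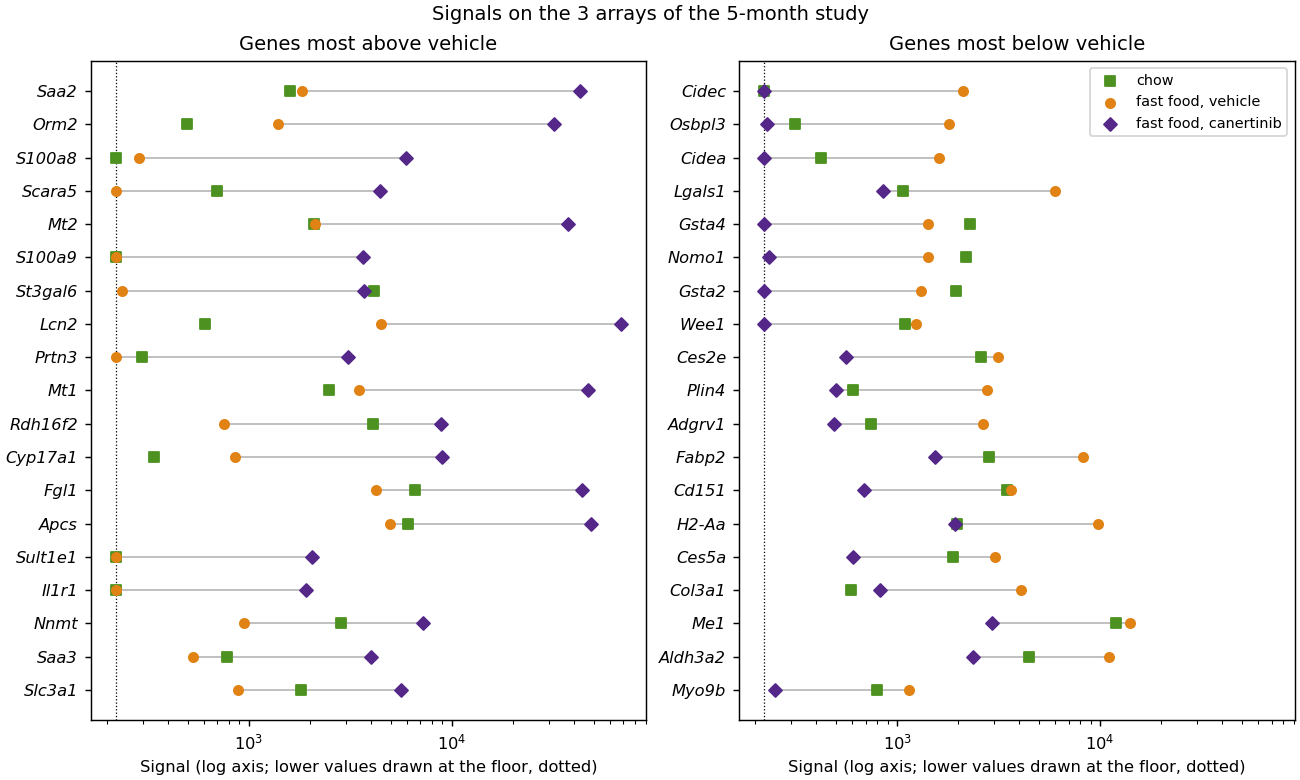
Signals (log axis) on the 3 arrays of the 5-month study for the genes most above (left) and most below (right) the vehicle level with canertinib; squares are chow, circles fast food with vehicle, diamonds fast food with canertinib, and signals under the floor are drawn on the dotted line. On the left, Saa2 reaches 42877 with canertinib against 1836 with vehicle; on the right, Lgals1 lies at 847.7 against 5984.

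The interleukin 6 family and interleukin 1 receptor list was higher in 7 of its 18 measured members by at least 2-fold, with none as far below and a median of 0.24. Il1r1, the signalling receptor of interleukin 1, was under the floor on the chow and vehicle arrays and read 1913 with canertinib, at least 8.64-fold higher. Socs3, the feedback inhibitor that STAT3 induces, gave 524.3 on chow, 386.4 with vehicle and 1513 with canertinib, and all 3 of its probe sets were higher. Socs2, the STAT5-induced counterpart, gave 845.7, 410.2 and 1541. Canertinib thus lay above both other arrays for these feedback genes. Smaller log2 differences were found for the oncostatin M receptor Osmr at 1.21, the receptor antagonist Il1rn at 1.18, the leukaemia inhibitory factor receptor Lifr at 1.10 and Stat3 itself at 1.01. Not all probe sets had the same sign, with 3 of 4 for Socs2, 1 of 2 for Osmr and 3 of 4 for Stat3, of which 1 reached 2-fold. The factor genes Cebpb and Cebpd had 0.15 and -0.03, within the robust SD of 0.31 between the chow arrays. Cebpd itself differed by -1.70 between the chow arrays. Cebpb gave 3532 on chow, 7132 with vehicle and 7926 with canertinib, and Cebpd gave 275.1, 1071 and 1049. For each, 1 of 2 probe sets had the sign given here. With canertinib at 2 months their log2 changes were 0.90 and 0.97.

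Metal handling genes were split. Both metallothioneins, small zinc-binding proteins, were far above vehicle: Mt2 gave 2101 on chow, 2109 with vehicle and 37403 with canertinib, and Mt1 gave 2484, 3476 and 46630, 17.7-fold and 13.4-fold differences. The zinc importer Slc39a14 and the zinc exporter Slc30a1 had log2 changes of 1.56 and 1.76, and the transferrin receptors Tfrc and Tfr2 had 1.30 and 1.08. Those 6 were the members past 2-fold among 18, and the list median was 0.18. All 4 probe sets of Slc39a14 and both of Slc30a1 were higher, but for each gene 1 reached 2-fold. Slc30a1 also differed by 1.34 between the chow arrays. Scara5, a receptor for ferritin, gave 699.3 on chow, was under the floor with vehicle and gave 4413 with canertinib, at least 19.9-fold. Both of its probe sets were higher, 1 of them at least 2-fold. Scara5 is also one of the adipose tissue markers, whose median was -0.18. Hepcidin, Hamp, the hormone that closes the iron exporter, gave 39497 on chow, 9881 with vehicle and 9956 with canertinib, a log2 change of 0.01. Its change at 2 months was -4.72.

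Neutrophil markers were higher beside the acute phase genes. Of 14 measured markers, 7 were at least 2-fold higher and none as far lower, with a median of 0.89 and a summed signal of 6643 on chow, 10630 with vehicle and 27599 with canertinib. Between the chow arrays none of the 14 was at least 2-fold different and their median was -0.03. Markers above the floor numbered 11 on chow, 11 with vehicle and 13 with canertinib. S100a8, a calprotectin subunit of neutrophils and monocytes, was under the floor on chow and gave 286.9 with vehicle and 5942 with canertinib, or 20.7-fold. Its partner S100a9 gave 223.0 on chow, was under the floor with vehicle and gave 3641, at least 16.4-fold. The azurophil granule gene Prtn3, outside the marker list, gave 296.5, was under the floor and gave 3079, at least 13.9-fold. Further granule genes were higher too, namely Ngp with a log2 change of 2.28, Ltf with 1.58, Mpo with 1.31 and Elane with 1.08, and Chil3 was at least 6.59-fold higher. Mmp9 had -0.19, and the chemokine receptor gene Cxcr2 was under the floor on both arrays. Neutrophils also make Lcn2. The part of these cells in the acute phase values was not tested.

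Markers of other cells moved less. Hepatocyte markers, all 13 above the floor on each array, had a median of 0.44, which was 0.01 after quantile normalization, and their summed signal was 519894 on chow, 393644 with vehicle and 590919 with canertinib. Albumin, Alb, had 0.36. Kupffer cell markers had a median of 0.32 with summed signals of 23216, 45992 and 52434. Marco, a scavenger receptor, was the member past 2-fold, at 1.92, while the complement genes C1qa, C1qb and C1qc of these macrophages had -0.18, -0.05 and -0.08. T and NK cell markers had a median of -0.53, with 9 of 9 above the floor with vehicle and 5 with canertinib. Of B and plasma cell markers, Ighm had 1.46 and Jchain 0.97, but Ighm was -0.35 without probe sets that may match several transcripts, and Pax5 had -1.20. Endothelial markers had a median of -0.21, monocyte and dendritic cell markers -0.12, ductular markers -0.26, erythroid 0.08, acinar -0.22, platelet 0.26, muscle 0.18 and mesothelial 0.43. The last 5 rest on 3 to 5 measured genes each.

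**Figure D4:**
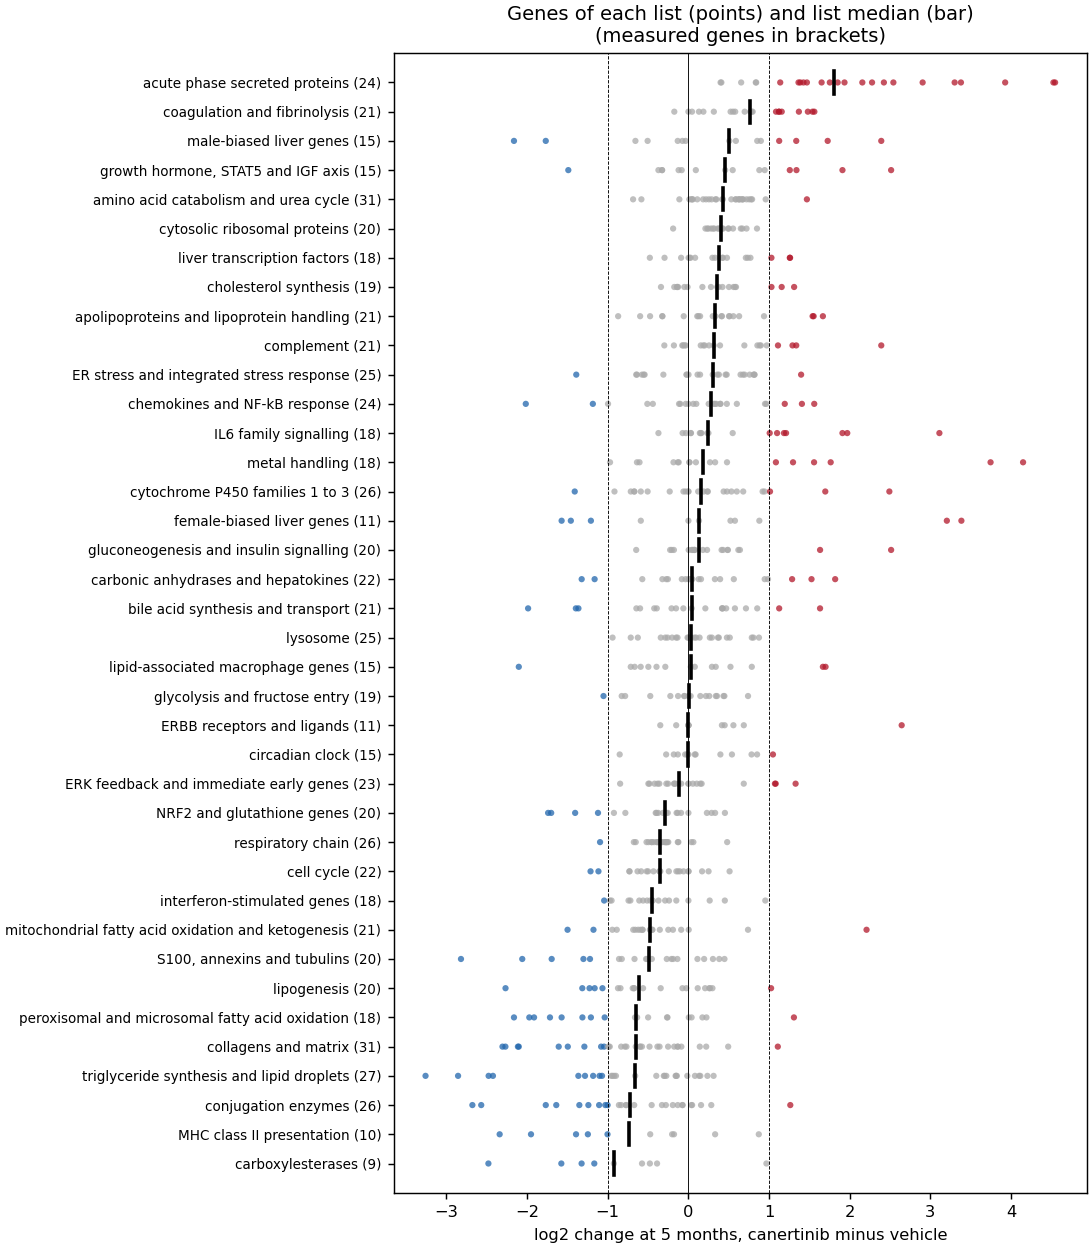
Log2 change with canertinib against vehicle at 5 months for every measured gene of the 38 pathway lists (points, coloured where at least 2-fold) and the median of each list (bar), with the number of measured genes in brackets. Acute phase genes lie highest with a median of 1.80, and carboxylesterases lowest with -0.92.

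Lists for other secreted and synthetic functions of hepatocytes had medians above vehicle, by less, and several depended on the processing. Coagulation and fibrinolysis genes had a median of 0.77, with 19 of 21 above and 8 at least 2-fold above vehicle. The bradykinin precursor Kng1 had 1.56, factor X, F10, had 1.54 and was at least 2-fold higher with 3 of 3 probe sets, factor VII, F7, had 1.48 and the plasmin inhibitor Serpinf2 had 1.37. Complement genes had a median of 0.31, which was 0.19 after quantile normalization, with 4 of 21 at least 2-fold higher, and C8b, a chain of the membrane attack complex, gave 7417 on chow, 936.8 with vehicle and 4913 with canertinib. Amino acid catabolism and urea cycle genes were above vehicle in 28 of 31 cases with a median of 0.43, or 0.27 after quantile normalization, but Got1, an aspartate aminotransferase, at 1.47, was the single member past 2-fold. Ribosomal protein genes were above in 19 of 20 cases with a median of 0.40, or 0.25 after quantile normalization, and none past 2-fold. Liver transcription factor genes had a median of 0.38, led by Foxa3 and Onecut1 at 1.26 each and Hnf4a at 1.03. Of the 4 probe sets of Hnf4a, all were higher and 1 was at least 2-fold higher. Endoplasmic reticulum stress genes had 0.30, which turned to -0.025 with the mean over probe sets. Among them Asns, an amino acid response gene, had 1.40 and the serine synthesis gene Phgdh -1.39. Of 3 probe sets of Phgdh, 2 were lower and 1 was at least 2-fold lower.

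Genes of lipid storage were lower. Of 27 measured genes for triglyceride synthesis and lipid droplets, 22 were below vehicle and 9 at least 2-fold below, none was at least 2-fold above, and the median was -0.66. Between the chow arrays 1 of the 27 was at least 2-fold lower and none higher. Cidec, which fuses and enlarges droplets, was under the floor on chow, gave 2119 with vehicle and was under the floor with canertinib, at least 9.57-fold lower. Cidea, its relative, gave 421.4 and 1603 and was under the floor with canertinib, at least 7.24-fold lower. The droplet coat gene Plin4 gave 606.4, 2781 and 499.6, or 5.57-fold. In these genes the canertinib array was near or below chow and the vehicle array stood alone on the high side. Fabp2, a fatty acid binding protein, gave 2849, 8210 and 1530, and the monoacylglycerol acyltransferase Mogat1 had -1.36. Plin2, the droplet coat of hepatocytes, had -1.28 and the lipolysis inhibitor G0s2 -1.07. Pparg, the nuclear receptor that drives several of these genes, gave 257.4 and 475.1 and was under the floor with canertinib, at least 2.15-fold lower. Without probe sets that may match several transcripts the list median was -0.35. Lpl, which releases fatty acids from lipoproteins, went the other way, with 968.1 on chow, 3881 with vehicle and 12323 with canertinib.

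Lipogenesis genes had a median of -0.62, with 14 of 20 below vehicle and 5 at least 2-fold below. Me1, which supplies NADPH, gave 11943 on chow, 14112 with vehicle and 2931 with canertinib, 4.81-fold lower with both probe sets past 2-fold. Thrsp, a lipogenic regulator, had -1.32, the desaturase Fads2 -1.23, the elongase Elovl6 -1.16 and fatty acid synthase, Fasn, -1.07. The regulators Srebf1 and Mlxipl had -0.67 and 0.26, and the desaturase Scd1 had 0.27. Me1 differed from Fasn in that chow and vehicle were alike, whereas Fasn gave 6061, 12367 and 5909. Pnpla3, a droplet hydrolase counted here as a lipogenic target, was the single member at least 2-fold higher, at 1.02.

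Fatty acid oxidation genes were lower as well. Of 18 peroxisomal and microsomal members, 8 were at least 2-fold lower and 1 higher, with a median of -0.65. Between the chow arrays 1 of the 18 was at least 2-fold lower and 2 were higher. The omega-hydroxylase Cyp4a12a gave 7565, 3270 and 730.3 on the chow, vehicle and canertinib arrays, the bifunctional enzyme Ehhadh gave 4107, 6894 and 1757, and the thiolase Acaa1b gave 35969, 47175 and 12521. The thioesterases Acot2 and Acot3 had -1.72 and a bound of -1.57, and the peroxisomal transporter Abcd2 had 1.31. Mitochondrial oxidation and ketogenesis genes had a median of -0.48 with 18 of 21 below vehicle, but Bdh1, a ketone body enzyme, with 4632, 8294 and 2936, and Eci1, with a log2 change of -1.18, were the members past 2-fold on that side. Ppargc1b, a coactivator of mitochondrial genes, gave 1989, 226.4 and 1046, a log2 change of 2.21. Ppara had -0.48 with all 3 probe sets lower. Respiratory chain genes had a small shift, with 23 of 26 below vehicle and a median of -0.35, near the robust SD of 0.31 between the chow arrays. Their changes ran from -1.10 to 0.48, with Uqcrc1 of complex III at -1.10 as the single member past 2-fold.

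Sterol and lipoprotein genes were less shifted. Cholesterol synthesis genes had a median of 0.36, and Msmo1 at 1.31, Idi1 at 1.16 and Sqle at 1.03 were at least 2-fold higher. For these enzymes the canertinib array remained far under chow: Idi1 gave 7736, 546.6 and 1218, and Msmo1 6322, 652.6 and 1619. Apolipoprotein and lipoprotein genes had a median of 0.33, which was 0.00 after quantile normalization, with Lpl at 1.67, the apolipoprotein M gene Apom at 1.55 and Angptl8, a lipase inhibitor, at 1.54. The median of bile acid genes was 0.04 and turned to -0.09 after quantile normalization. Within that list Cyp7a1, the rate-limiting enzyme of bile acid synthesis, gave 3068, 2270 and 7033, while the 12alpha-hydroxylase Cyp8b1 gave 14191, 8465 and 2135. Both probe sets of Cyp7a1 were higher, 1 of them at least 2-fold. The uptake carrier Slco1a4 had -1.40 and Abcc3, an exporter to blood, -1.36.

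Matrix genes were lower. Of 31 measured genes for collagens and matrix, 27 were below vehicle and 9 at least 2-fold below, with a median of -0.65. Between the chow arrays none of the 31 was at least 2-fold lower and 1 was higher. The fibrillar collagen gene Col3a1 gave 589.7 on chow, 4072 with vehicle and 824.0 with canertinib, 4.94-fold lower with both probe sets past 2-fold. Col1a1 was under the floor on chow and with canertinib and gave 1067 with vehicle, at least 4.82-fold lower. Both probe sets of Col1a1 were lower, 1 of them at least 2-fold. The matrix glycoprotein Sparc gave 865.8, 5533 and 1278, and the macrophage elastase Mmp12 was at least 4.30-fold lower. Each of these had its highest level of the 3 arrays with vehicle. Fibronectin, Fn1, which hepatocytes also secrete, was the single member at least 2-fold higher, at 1.11. Stellate cell and myofibroblast markers, which share decorin, Dcn, with the matrix list, had a median of -0.30 with none past 2-fold. Their summed signals were 15921, 32634 and 22707, of which Dcn gave 4457, 15851 and 8894. Of the 15 markers, 12, 13 and 10 lay above the floor. The part of stellate cells and myofibroblasts in the matrix values was not tested. The log2 change of Dcn was -0.83, that of the retinol esterifier Lrat -0.76 and that of the contractile actin Acta2 -0.17.

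S100, annexin and tubulin genes had a median of -0.48 with 5 of 20 at least 2-fold lower. Galectin 1, Lgals1, gave 1070.0 on chow, 5984 with vehicle and 847.7 with canertinib, 7.06-fold lower, and both of its probe sets were past 2-fold. The annexin partner S100a10 gave 1550.0, 5962 and 1430, and the tubulin gene Tubb2a gave 1440, 8652 and 2672. MHC class II presentation genes had a median of -0.74 with 5 of 10 at least 2-fold lower. H2-Aa, a class II chain, gave 1975, 9751 and 1926, 5.06-fold lower, and all 4 of its probe sets were lower. The invariant chain Cd74 gave 1617, 8659 and 2239. The list median depends on dim members, and was -1.25 over genes above the floor on both arrays and -0.20 without probe sets that may match several transcripts. Lipid-associated macrophage genes did not move together, with Fabp5 at 1.70 and Lpl at 1.67 above and Mmp12 below, a median of 0.03, and -0.11 after quantile normalization. Of 24 chemokine and NF-kB response genes, Ccl4 at 1.56, the endotoxin co-receptor Cd14 at 1.41 and Cxcl14 at 1.19 were at least 2-fold higher, and Cxcl9 with a bound of -2.02 and Vcam1 at -1.18 lower. Interferon-stimulated genes had a median of -0.46 with Irgm1 at -1.04 as the single member past 2-fold.

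Of 11 measured ERBB receptors, ligands and partners, Egfr was the single one at least 2-fold different. Egfr gave 8635 on chow, 1683 with vehicle and 10516 with canertinib, 6.25-fold higher than vehicle, and of its 6 probe sets 5 were higher and 4 at least 2-fold higher. The canertinib array thus stood above the chow array, and the vehicle array alone was low. Among the other 10, Erbb3 had 0.56, the EGFR feedback inhibitor Errfi1 0.69 and the neuregulin gene Nrg4 0.45, and Erbb2 was under the floor on both arrays. The list median was 0.00, and 0.45 over genes above the floor on both arrays. Among 23 ERK feedback and immediate early genes the median was -0.12, and Egr1 at 1.33, Ier3 at 1.08 and Junb at 1.07 were at least 2-fold higher. Dusp6 and Spry4, feedback inhibitors that ERK induces, had -0.12 and -0.18, both within the robust SD between the chow arrays. Egr1 differed by 2.88 between the chow arrays. Of 22 cell cycle genes, Mcm2 at -1.21 and cyclin D1, Ccnd1, at -1.12 were at least 2-fold lower, the latter with all 3 probe sets, and the median was -0.35. Wee1, which restrains entry into mitosis, gave 1089 and 1246 and was under the floor with canertinib, at least 5.63-fold lower. Both of its probe sets were lower, 1 of them at least 2-fold. At 2 months its drug change was 0.93, and the fast-food array without drug gave 341.5.

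Growth hormone and IGF axis genes had a median of 0.46, which was 0.15 after quantile normalization. Igfbp1, an IGF binding protein that insulin represses, gave 1301 on chow, 5014 with vehicle and 28615 with canertinib, 5.71-fold. Igfals, the acid-labile subunit of the circulating IGF complex, gave 3881, 1135 and 2872, Igf1 gave 16934, 8689 and 16734, and Igfbp3 had -1.49. Male-biased liver genes divided, with 4 of 15 at least 2-fold higher, 2 lower and a median of 0.51. With canertinib at 2 months the same list had a median of -1.16, with 1 at least 2-fold higher and 8 lower. Hsd3b5, a steroid enzyme of male liver, gave 11754 on chow, was under the floor with vehicle and gave 732.6 with canertinib, at least 3.31-fold higher but far under chow. At 2 months Hsd3b5 gave 897.3 on fast food and was under the floor with canertinib, at least 4.05-fold lower. Cyp4a12a at -2.16 and Ugt2b1 at -1.77 were lower. Of 11 female-biased genes, Cyp17a1, a steroid hydroxylase, gave 340.0, 854.0 and 8916, and estrogen sulfotransferase, Sult1e1, was under the floor on chow and with vehicle and gave 2040 with canertinib, at least 9.21-fold higher. Acot3, Cyp2b9 and Acot4 of the same list were lower, the first with a bound of -1.57 and the others at -1.46 and -1.21.

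Drug-metabolising genes differed by class. Conjugation enzymes had a median of -0.72 with 9 of 26 at least 2-fold lower. Gsta4 and Gsta2, glutathione transferases, gave 2288 and 1948 on chow and 1417 and 1313 with vehicle and were under the floor with canertinib, at least 6.40-fold and 5.93-fold lower. Carboxylesterases had the lowest median of all lists, -0.92, with 8 of 9 below vehicle. Ces2e gave 2582, 3128 and 560.9, 5.58-fold lower, Ces1e had -1.58 and Ces1f -1.32. For Gsta4, Gsta2, Ces2e, Ces1e and Ces1f the canertinib array lay under both others. NRF2 and glutathione genes had a median of -0.30, with the epoxide hydrolase Ephx1 at -1.74, Cbr3 with a bound of -1.70, Gclc, of glutathione synthesis, at -1.40 and Gpx4 at -1.12. P450 families 1 to 3 had a median of 0.16, which was 0.00 after quantile normalization, and Cyp2c54 gave 13937, 2100.0 and 11806 while Cyp2c39 was at least 2.66-fold lower. Sulfotransferase Sult1a1, at 1.26, was the single member of the conjugation list at least 2-fold higher. Sult1e1, given above, was counted with the female-biased genes.

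The remaining lists were near the level of all genes. Gluconeogenesis and insulin signalling genes had a median of 0.13, with Igfbp1 and Irs2, an insulin receptor substrate at 1.63, past 2-fold. Glycolysis and fructose genes had 0.01 and pyruvate kinase, Pklr, at -1.05 with all 3 probe sets past 2-fold. The clock list had 0.00 with Nfil3 at 1.05, and lysosomal genes had 0.04, turning to -0.03 after quantile normalization, with none past 2-fold. In the carbonic anhydrase and hepatokine list the median was 0.04, Itih1 had 1.82, fetuin B, Fetub, 1.53, angiotensinogen, Agt, 1.29 and Car3 -1.32.

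Several of the largest single differences lay outside the lists. St3gal6, a sialyltransferase, gave 4133 on chow, 237.7 with vehicle and 3686 with canertinib, 15.5-fold, but its signals of 650.8, 9706 and 14878 in the 2-month study, in the same order, show that it also varied widely between arrays of the same diet. Rdh16f2, a retinol dehydrogenase family member, gave 4080, 752.4 and 8849, and Nnmt, which methylates nicotinamide, gave 2858, 944.8 and 7245. Slc3a1, a subunit of a cystine transporter, gave 1799, 885.6 and 5607. On the lower side Osbpl3, an oxysterol-binding protein homologue, gave 312.8, 1792 and 229.4 with both probe sets past 2-fold, and Aldh3a2, a fatty aldehyde dehydrogenase, gave 4476, 11040 and 2370. Adgrv1, an adhesion receptor, gave 744.1, 2652 and 486.6, and Ces5a, a carboxylesterase not in the list, 1879, 3048 and 608.2, although 1 of its 2 probe sets was not lower. For Cd151, a tetraspanin with 3471, 3656 and 687.5, 1 of 5 probe sets reached 2-fold, and for Nomo1 and Myo9b 1 of 2 did.

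The 2-month study shares no array with this comparison and used another route and duration of canertinib. Of the 307 genes higher at 5 months, 133 (43.3%) were among the 497 genes (3.55% of those measured) at least 2-fold higher with canertinib at 2 months, which is 26.8% of that list. On the lower side 121 genes were shared, 31.7% of the 382 at 5 months and 26.5% of the 456 (3.26%) at 2 months. In the opposite direction were 7 of the 307 (2.28%) and 11 of the 382 (2.88%), close to the shares of all measured genes, 3.26% and 3.55%. Over all genes higher at 2 months the median 5-month change was 0.49, and over those lower it was -0.55.

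**Figure D5:**
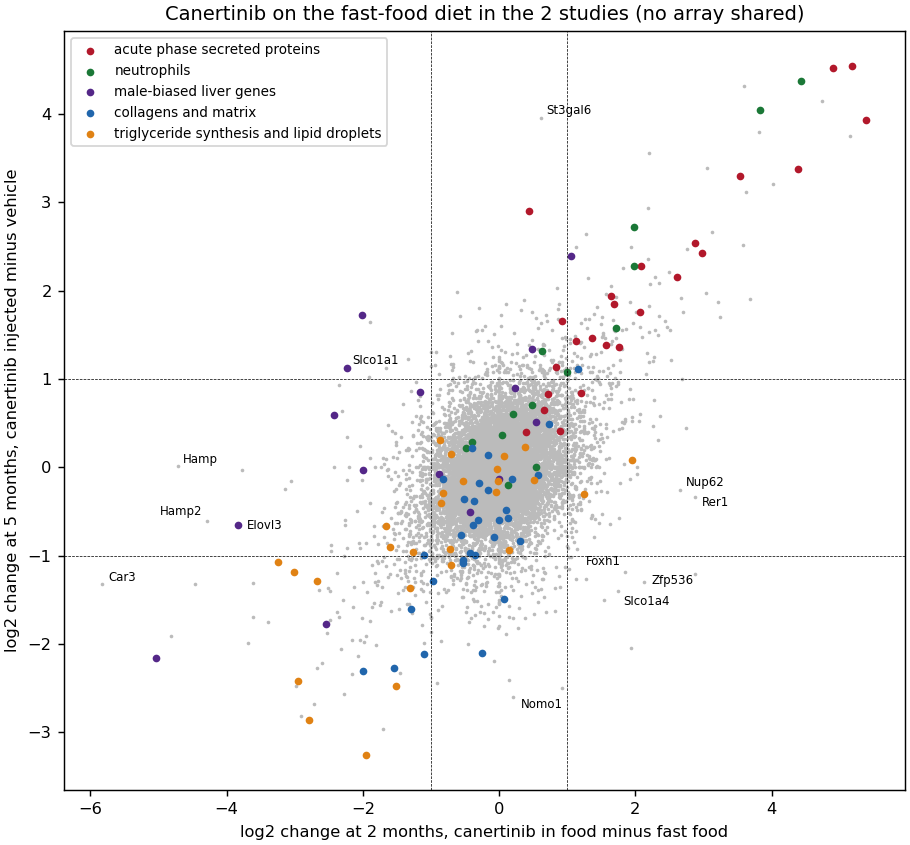
Log2 change with canertinib in the 2-month study (x axis, drug in food) and in the 5-month study (y axis, drug injected), 1 point per measured gene, dashed lines at 2-fold, colours for 5 lists, and values with an array at the floor drawn at their bound. Acute phase genes lie in the upper right, Saa3 at 0.44 and 2.90 being shifted left, while Hamp at -4.72 and 0.01 and Car3 at -5.82 and -1.32 lie far left.

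The genes that differed most between the studies were chosen by the size of that difference, so their values are a description. Hamp, Hamp2, Car3 and Elovl3 had large negative changes at 2 months, of -4.72, -4.29, -5.82 and -3.84, and 0.01, -0.61, -1.32 and -0.66 at 5 months. Without canertinib, the fast-food arrays, injected with vehicle at 5 months and not injected at 2 months, gave 9881 and 29290 for Hamp, 1734 and 4590 for Hamp2, 2252 and 6974 for Elovl3, and 47170 and 56907 for Car3. Rer1 and Nup62 had 2.88 and 2.66 at 2 months against -0.33 and -0.25, and in both the 2-month fast-food array was low, at 239.8 and 569.9, where the other 5 arrays lay between 1068 and 2227 for Rer1 and between 1925 and 3598 for Nup62.

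Genes that the diet shifted at 2 months were then followed in the 5-month drug comparison, since they were selected on arrays it does not use. The 277 genes at least 2-fold higher with the fast-food diet than with chow at 2 months (1.98% of those measured) had a median change of -0.21 with canertinib at 5 months, and 56 of them (20.2%) were at least 2-fold lower and 17 (6.14%) higher. The 217 genes lower with the diet at 2 months (1.55%) had a median of 0.00, with 23 (10.6%) at least 2-fold higher and 11 (5.07%) lower. Over all measured genes the shares were 2.19% higher and 2.73% lower. Within the 5-month study, diet and drug comparisons share the vehicle array, so a high or low signal there moves them in opposite directions, and their values are given side by side. For triglyceride and droplet genes the median was 0.50 with diet against chow and -0.66 with drug against vehicle, for matrix genes 0.90 and -0.65, for MHC class II genes 1.20 and -0.74 and for acute phase genes -0.19 and 1.80. For conjugation enzymes it was -0.48 and -0.72, and for cholesterol synthesis -1.25 and 0.36.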

How the data were processed

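Liver RNA of 6 pooled groups was measured on Affymetrix mouse genome arrays, 1 array per group. The deposited values are MAS5 signals per the submitters' processing notes, with the version not given in the sources used here. They are linear intensity values that the authors scaled, from the values, to a mean of 500 per array after 2% of probe sets were trimmed at each end. Arrays have no read depth, and their number limits the precision.

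Of 45101 probe sets, 34958 had 1 gene symbol in the platform annotation, 932 several and 9211 none. The brightest probe set stood for each of 18194 genes, and 13989 above the floor on at least 1 array were analysed. Log2 differences were taken after the floor, with no test. Of 1090 list names, 119 were not matched and 68 were not above the floor on any array, and these are not analysed here. The members and lists were chosen with earlier results of these data known. Named were the 14 largest differences each way above the floor on both arrays, the 5 largest bounds each way, the 4 largest changes in each list, the 6 genes most above and most below their 2-month change, and 24 fixed genes; other list members and the members of a list past 2-fold were chosen after their values were seen. The alternatives were quantile and median normalization, other floors, filters, probe set rules and thresholds. Leaving out genes 2-fold different between the chow arrays was added after seeing the data. The counting was tested on simulated data. Promoters came from RefSeq on GRCm38.p6. Python 3.11.15, NumPy 2.4.6, SciPy 1.17.1, pandas 2.3.3 and matplotlib 3.10.9 were used.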

Additional observations from a re-analysis of the deposited data

Results flagged for a closer look

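Among genes above the floor on all 4 fast-food arrays, 7 differed at least 2-fold with canertinib in opposite directions at 5 and at 2 months. The difference between the times was not tested, and each side is 1 array. The organic anion carrier gene Slco1a1 gave 3637 with canertinib against 1667 with vehicle at 5 months and 1023 against 4797 without drug at 2 months, log2 changes of 1.13 and -2.23. Its relative Slco1a4 had -1.40 and 1.74 in the same order. The peroxisomal transporter gene Abcd2 had 1.31 and -1.01. The zinc finger gene Zfp536 had -1.30 and 2.13, the forkhead gene Foxh1 -1.18 and 1.85, the ephrin receptor gene Ephb4 -1.27 and 1.13, and Vps33a, of vesicle sorting, -1.02 and 1.02. Of these, Zfp536, Foxh1, Ephb4 and Vps33a were dim, with no signal above 1068 on any array, and Vps33a lay at 221.9 with canertinib at 5 months, next to the floor.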

How the results depend on the processing

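Without replicates, no error stands behind any value, and dim genes are limited by the floor. No paired analysis was possible because each group had 1 array. The count of genes higher with canertinib was 1150 at 1.5-fold and 86 at 3-fold. The count of lower genes was 1294 and 76 at these thresholds, 601 and 254 with the floor at the 40th and 60th percentile, and 239 with the mean over probe sets. The thresholds act by construction, and the cause of the other differences was not tested. Leaving out genes 2-fold different between the chow arrays, chosen after seeing the data, kept both counts within 1.5 times. Of called genes, 44.6% were higher as given, 46.4% after quantile normalization and 50.7% after median centring, where 346 were higher and 337 lower, so the balance turned.

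List medians that moved beyond the robust SD between the chow arrays were those of triglyceride and lipid droplet genes at -0.35, bile acid genes at 0.42 and MHC class II genes at -0.20 without probe sets ending in _s_at, _x_at or _a_at, apolipoprotein genes at 0.00 after quantile normalization, endoplasmic reticulum stress genes at -0.025 with the mean over probe sets, ERBB genes at 0.42 with the 40th percentile floor and 0.45 over genes above the floor on both arrays, and MHC class II genes at -1.25 there. Genes chosen at 3-fold in the 2-month study had 5-month medians of -0.54 (diet higher), 1.42 (drug higher) and -1.10 (drug lower). Of the named genes, Ighm turned from 1.46 to -0.35 without those probe sets. Among the other named genes and cell type lists, values moved beyond that SD in 23 and 41 cases with the floor at the 40th and 60th percentile, in 53 with the mean over probe sets, in 17 without those probe sets and in 8 after quantile normalization. The causes were not tested. Median centring adds the same 0.04 to every drug difference at 5 months. It could therefore move no named gene or list beyond that SD and is no check of them.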
